A study of Mus musculus with 6 samples.

Results

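Protein arginine methyltransferases were followed through testis libraries of mice with and without the long non-coding RNA Teshl. The set holds 9 of the 25165 gene symbols in the deposited tables: Prmt1, Prmt2, Prmt3, Prmt5, Prmt6, Prmt7, Prmt8, Prmt9 and Carm1 (also called Prmt4). It was taken by symbol and was picked because Prmt2 was lower in the libraries titled KO than in those titled WT. The KO and WT values of the members are therefore a description. Their standard errors and intervals, from a fit over all genes, show the spread, and no p-value is given for them.

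The libraries came from total RNA of whole testis of C57BL/6 mice aged 8 weeks. A group of 3 libraries is titled KO, for mice lacking the transcript NR_038002 of Teshl, and a group of 3 is titled WT, for wild-type mice. The labels do not say how the allele was made or whether a separate mouse gave each library, and their genotype field carries the opposite assignment for all 6 libraries. Values of the target gene, 1700027A15Rik, followed the titles: it had 0.385 FPKM in KO replicate 1 and was listed at 0 in KO replicates 2 and 3, against 1028, 989 and 1081 FPKM in WT replicates 1 to 3. KO and WT below are the titles. FPKM counts fragments per kilobase of transcript, scaled to the mapped fragments of the library.

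These enzymes move methyl groups from S-adenosylmethionine to the side chain of arginine in histones, RNA-binding proteins and splicing proteins. Type I enzymes (Prmt1, Prmt2, Prmt3, Carm1, Prmt6 and Prmt8) finish with asymmetric dimethylarginine, type II enzymes (Prmt5 and Prmt9) with symmetric dimethylarginine, and the type III enzyme Prmt7 with monomethylarginine. In germ cells, symmetric dimethylarginine on PIWI proteins is bound by Tudor domain proteins of the piRNA pathway.

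The promoter of Prmt2 is shown because Prmt2 is the member the set was picked for, and those of Prmt7 and Prmt8 because these had the highest and the lowest level of the 9 in testis. The windows run from 250 bases before to 50 after the RefSeq start (GRCm38.p6), 5′ to 3′ on the gene's own strand. Capitals mark matches on either strand to the core of the site of the transcription factor NRF1 and to the GC box GGGCGG.
Prmt2 (chr10:76237816-76238115, minus strand): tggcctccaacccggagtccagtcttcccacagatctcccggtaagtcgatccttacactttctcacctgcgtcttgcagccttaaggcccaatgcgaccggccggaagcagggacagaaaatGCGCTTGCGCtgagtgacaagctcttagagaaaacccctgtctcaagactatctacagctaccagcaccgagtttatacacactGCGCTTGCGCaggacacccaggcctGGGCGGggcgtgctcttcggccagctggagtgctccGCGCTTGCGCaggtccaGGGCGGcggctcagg
Prmt7 (chr8:106210804-106211103, plus strand): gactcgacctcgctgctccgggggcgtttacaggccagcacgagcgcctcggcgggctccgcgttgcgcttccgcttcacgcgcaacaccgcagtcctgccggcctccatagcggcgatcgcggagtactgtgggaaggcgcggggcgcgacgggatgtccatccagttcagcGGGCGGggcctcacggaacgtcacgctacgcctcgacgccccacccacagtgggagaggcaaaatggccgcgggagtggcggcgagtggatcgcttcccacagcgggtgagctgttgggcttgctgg
Prmt8 (chr6:127769106-127769405, minus strand): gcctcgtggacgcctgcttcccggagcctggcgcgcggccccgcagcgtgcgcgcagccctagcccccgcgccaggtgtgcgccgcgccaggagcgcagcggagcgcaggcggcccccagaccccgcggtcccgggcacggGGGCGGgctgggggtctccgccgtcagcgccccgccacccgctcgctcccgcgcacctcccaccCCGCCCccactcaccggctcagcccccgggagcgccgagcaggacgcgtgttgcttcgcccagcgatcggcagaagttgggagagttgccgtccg

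The Prmt2 window held 3 matches to the NRF1 core, each with the same letters, starting at -127, -43 and 19 relative to the start site. None overlapped its 2 GC boxes. Of 32851 promoter windows of the same length in the RefSeq table, 4.603% held at least 1 such match and 32 windows (0.0974%) held 3 or more. The motif itself holds CpG, and these shares are not over windows of like CpG count. The Prmt2 window held more CpG than 73.5% of all windows. Among the members with a window (8 of 9, all but Carm1), Prmt2 was the only one with a match to this motif, which was searched after the sequence had been seen. The GC box occurred in 35.7% of all windows and in those of Prmt1, Prmt2, Prmt3, Prmt7 and Prmt8. CCAAT, present in 37.4% of all windows, occurred in those of Prmt1, Prmt2, Prmt3 and Prmt5. TATAAA, present in 13.6% of windows, was found in Prmt2 alone among the members, where it reads on the strand opposite to the gene. All motifs were counted on either strand. TGACGTCA, the full cyclic AMP response element, was found in 1.79% of all windows and in Prmt9 alone among the members. CACGTG, the E box, found in 7.15% of windows, occurred in Prmt1 and Prmt3, and no member held a heat shock element of 3 units, found in 0.603% of windows. CpG counts were highest in Prmt8 (44 in the window printed) and Prmt7 (39), against 20 in Prmt2 and a median of 7 over all windows. These matches describe letters in the windows and not sites in use.

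Depth estimated from the spacing of the lowest values was 28100000 to 39800000 fragments per library. Sums over all symbols were 398081 to 413604 FPKM in KO and 393622 to 413589 FPKM in WT. The genes tested were the 12952 that averaged 1 FPKM or above in KO, in WT or in both. Over them, Pearson correlations of log2(FPKM + 1) were 0.991 to 0.993 within KO, 0.989 to 0.992 within WT and 0.981 to 0.991 between the groups. By limma with Benjamini-Hochberg adjustment at 0.05, 102 of these genes were higher and 47 lower in KO. With upper-quartile scaling the split was 121 to 33, or 78.6% higher against 68.5%. With median-of-ratios scaling it was 85 to 28 (75.2% higher), and with equal library totals 132 to 61 (68.4% higher). The median difference of all tested genes was -0.043 on the log2(FPKM + 1) scale and 65.7% of them had a negative one.

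Prmt2 was the member that differed most between the groups. It encodes a type I enzyme with an SH3 domain that is known as a coactivator of nuclear hormone receptors, and lies on chromosome 10 at 76207222 to 76237865, minus strand (GENCODE M21, GRCm38). Its level was 1.51, 1.49 and 1.53 FPKM in KO replicates 1 to 3, against 2.84, 3.68 and 3.40 FPKM in WT replicates 1 to 3. Every KO library lay below every WT library, and the WT libraries were spread more widely than the KO ones. The mean was 1.51 ± 0.0216 FPKM in KO and 3.30 ± 0.428 FPKM in WT (SD, n = 3 each), so KO stood at 45.7% of WT. On the log2(FPKM + 1) scale the difference was -0.77 (SE 0.08, 95% interval -0.96 to -0.59), while the ratio of the FPKM means was -1.13 on the log2 scale, since the added 1 understates the change of a gene at this level.

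The values of Prmt2 rest on few fragments. For its longest coding transcript of 2100 nt they correspond to an estimated 103 to 128 fragments per KO library and 167 to 248 per WT library. Counting error alone would give a coefficient of variation of 9.33% in KO and 6.83% in WT. The observed coefficients were 1.43% in KO, below the counting error, and 13.0% in WT, above it.

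Within each library, Prmt2 was also set against Prmt6, next to it in mean level in WT, and against Prmt3. Prmt9, next to Prmt2 in mean level in KO, was not set against it. These ratios use the same Prmt2 values and describe them in another form. Against Prmt6 the ratio of FPKM values was 0.549, 0.488 and 0.498 in KO replicates 1 to 3, against 0.862, 1.15 and 1.01 in WT replicates 1 to 3. Against Prmt3 it was 0.755 to 1.02 in KO and 1.52 to 1.83 in WT. Prmt2 supplied 1.57% to 1.603% of the summed FPKM of the 9 members in KO and 2.81% to 3.31% in WT.

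**Figure D1:**
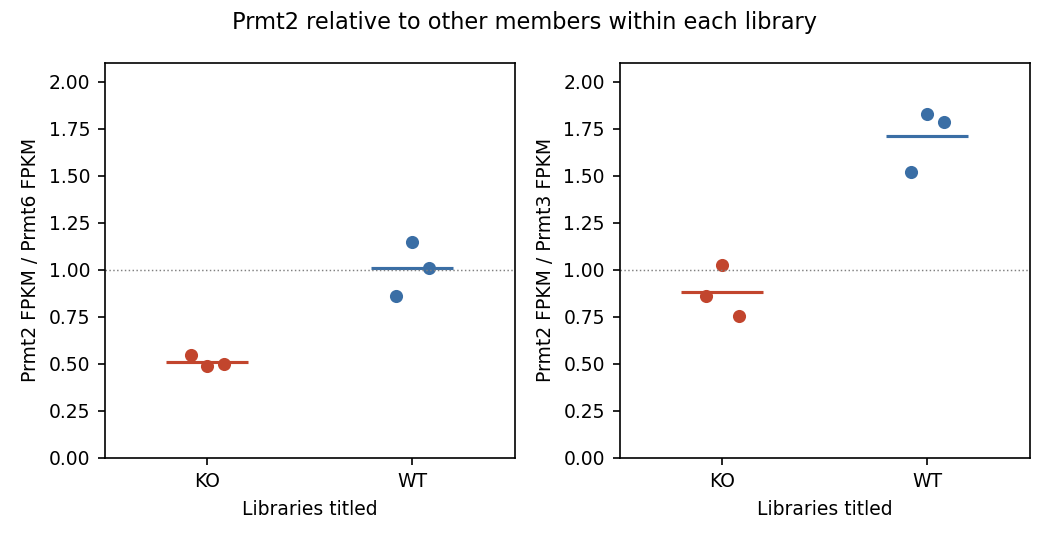
FPKM of Prmt2 divided by that of Prmt6 (left) and of Prmt3 (right) in each library, KO at left and WT at right in each panel, with points for libraries and lines for group means. Against Prmt6 the KO libraries lie between 0.488 and 0.549 and the WT libraries between 0.862 and 1.15.

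Genes around Prmt2 were compared as its surroundings on chromosome 10. The nearest tested genes are Slc5a4b, of the sodium and glucose cotransporter family, 96260 bp away on the side of lower coordinates, and Dip2a, 21563 bp away on the other. Slc5a4b had 3.95, 4.91 and 4.41 FPKM in KO and 3.66, 3.87 and 4.10 FPKM in WT (log2 difference 0.15, SE 0.08, limma adjusted p = 0.411). Dip2a had 2.57, 2.66 and 2.81 FPKM in KO and 2.35, 2.85 and 2.64 FPKM in WT (log2 difference 0.03, SE 0.07, limma adjusted p = 0.872). The libraries of both genes overlapped between the groups. Slc5a4a and S100b lie closer but were below the level for testing, with 0.0683 to 0.137 FPKM in KO and 0.0617 to 0.124 FPKM in WT for Slc5a4a, and 0.439 to 0.602 FPKM in KO and 0.551 to 0.630 FPKM in WT for S100b. The microRNA gene Mir678 lies inside Prmt2 on the same strand and was listed at 0 in all 6 libraries.

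The other type I enzymes lay closer to their WT levels. Prmt1, the main source of asymmetric dimethylarginine in most cells, had 10.9, 10.1 and 11.5 FPKM in KO and 12.5, 12.0 and 12.5 FPKM in WT. Its KO libraries all lay below its WT libraries, and KO stood at 87.7% of WT (log2 difference -0.18, SE 0.06, 95% interval -0.31 to -0.04). Carm1, which methylates histone H3 and coactivators, had 22.9, 26.7 and 25.2 FPKM in KO and 25.0, 25.4 and 30.2 FPKM in WT. These ranges overlapped, with KO at 92.8% of WT (log2 difference -0.10, SE 0.08, interval -0.29 to 0.09). Carm1 overlaps Yipf2, on the opposite strand, over 3942 bp, and Yipf2 was listed at 0 in all 6 libraries. Nothing in the sources used here says whether the authors counted by strand, and without strand fragments of such overlapping genes cannot be told apart.

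Prmt3, which methylates ribosomal protein S2, had 1.76, 1.46 and 2.03 FPKM in KO and 1.87, 2.01 and 1.90 FPKM in WT, and the groups overlapped. Its log2 difference was -0.10 (SE 0.09, interval -0.29 to 0.10). Prmt6, a nuclear enzyme that methylates histone H3, had 2.75, 3.05 and 3.08 FPKM in KO and 3.29, 3.21 and 3.36 FPKM in WT. Its groups did not overlap but lay close, and KO stood at 90.1% of WT (log2 difference -0.11, SE 0.07, interval -0.26 to 0.04). An antisense gene, C130013H08Rik, overlaps it and was not analysed here. Prmt8, the membrane-bound relative of Prmt1 known from brain, was nearly absent, with 0.0457, 0.0125 and 0.0104 FPKM in KO and 0.0445, 0.0129 and 0.0387 FPKM in WT. On its single annotated transcript these values correspond to an estimated 1.13 to 4.49 fragments per library, where 3 fragments equal 0.0277 to 0.0392 FPKM, so no difference could be detected at this depth and no fold is given.

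The type II and type III enzymes differed by similar amounts. Prmt5, the main source of symmetric dimethylarginine, had 8.71, 8.34 and 8.50 FPKM in KO and 9.16, 10.5 and 9.59 FPKM in WT. Every KO library lay below every WT library, with KO at 87.2% of WT (log2 difference -0.18, SE 0.07, interval -0.32 to -0.03). Its obligate partner Wdr77, which forms the methylosome with it, had 7.41, 8.31 and 8.24 FPKM in KO and 7.71, 7.96 and 8.78 FPKM in WT. The ratio of Prmt5 to Wdr77 was 1.003 to 1.17 in KO and 1.09 to 1.32 in WT, and overlapped. Prmt9, which methylates the splicing factor Sf3b2, had 1.69, 1.503 and 1.76 FPKM in KO and 1.99, 2.03 and 1.76 FPKM in WT. Its highest KO library lay just below its lowest WT library, at 1.759 against 1.764 FPKM (log2 difference -0.14, SE 0.07, interval -0.31 to 0.02). Prmt7, the monomethylating enzyme, had 45.8, 40.3 and 42.3 FPKM in KO and 44.4, 52.2 and 46.3 FPKM in WT, with overlap and KO at 89.8% of WT (log2 difference -0.15, SE 0.07, interval -0.32 to 0.02). The end of Prmt7 overlaps Smpd3, on the opposite strand, over 247 bp. A long non-coding RNA gene, Gm26786, also on the opposite strand, overlaps Prmt7 over 14892 bp. Gm44822 and Gm26856 overlap Prmt3, Gm42738 and Gm42739 overlap Prmt8, and Gm23468 and Gm45286 overlap Prmt9. None of these Gm genes was analysed here.

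**Figure D2:**
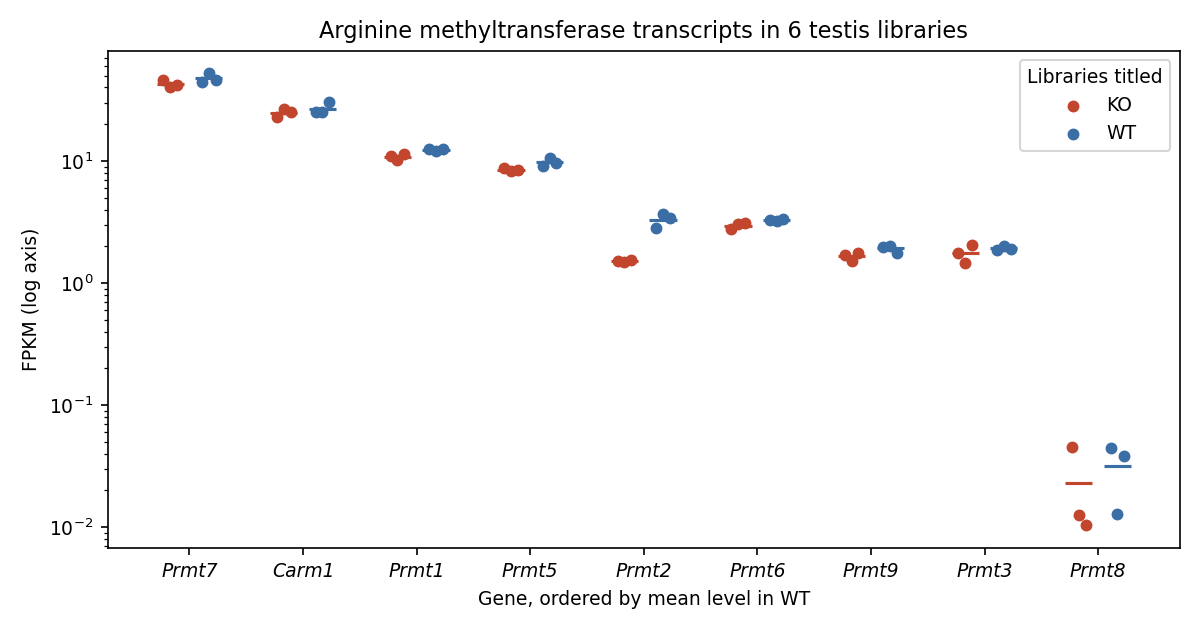
FPKM on a log axis of the 9 members in each library, KO at left and WT at right for each gene, with points for libraries and short lines for group means. Prmt7 is highest and Prmt8 lowest in both groups, and Prmt2 is the gene whose KO points, near 1.51 FPKM, lie farthest below its WT points on this axis among the 8 genes above 1 FPKM.

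In the fit over all genes 1 of the 8 members in it, Prmt2, lay past the limma threshold and lower, which restates how the set was picked. Over all tested genes 0.363% were called lower, 0.788% higher and 1.15% either way. All 8 had a negative difference, with a median of -0.15. In 5 of the 8 (Prmt1, Prmt2, Prmt5, Prmt6 and Prmt9) the KO libraries lay wholly below the WT libraries, where 15.8% of all tested genes did so, 5.92% lay wholly above and 21.7% were apart either way. The set was picked on this contrast, so these counts describe it and carry no weight of their own. Apart from Prmt2 the differences of the 7 others lay between -0.18 and -0.10, and each of their intervals reached -0.26 or lower, so these data allow a difference of that size in any of them.

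**Figure D3:**
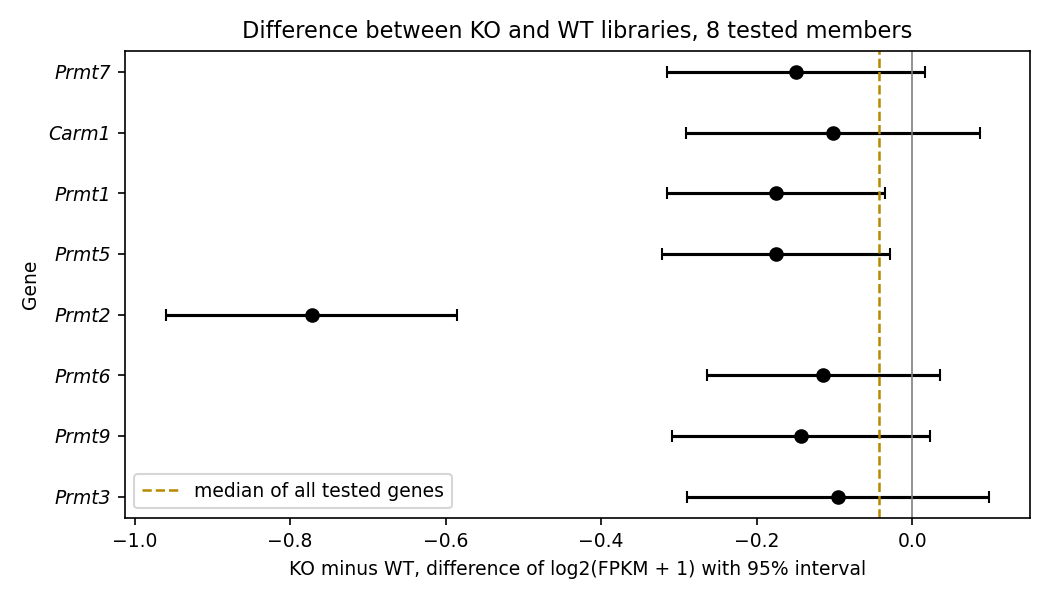
Difference of log2(FPKM + 1), KO minus WT, for the 8 tested members with 95% intervals from the limma fit. The dashed line is the median of all tested genes at -0.043; the interval of Prmt2 runs from -0.96 to -0.59 and those of the 7 others have their lower ends between -0.32 and -0.26.

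The order of the members by level differed mainly through Prmt2. In KO it was Prmt7, Carm1, Prmt1, Prmt5, Prmt6, Prmt3, Prmt9, Prmt2 and Prmt8. In WT it was Prmt7, Carm1, Prmt1, Prmt5, Prmt2, Prmt6, Prmt9, Prmt3 and Prmt8. Prmt2 thus stood in place 8 in KO, where its range overlapped that of Prmt9, and in place 5 in WT, where its range overlapped that of Prmt6. Prmt3 and Prmt9 overlapped each other in both groups and exchanged places, with means of 1.93 FPKM each in WT. All other neighbours in the order had ranges apart. Prmt7 had a mean 1.72 times that of Carm1 in KO and 1.77 times in WT, and in WT it stood above 86.8% of tested genes. Prmt2 in WT stood above 28.2% of them, and Prmt3 and Prmt9 above 14.9%.

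Summed over the 9 members, FPKM was 96.0, 93.0 and 95.9 in KO and 101, 111 and 109 in WT. The means were 94.97 ± 1.70 in KO and 107 ± 5.32 in WT (SD, n = 3 each), or 88.7% of WT, and 90.05% with Prmt2 left out. The shares of the types overlapped between the groups. Type I enzymes supplied 41.5% to 46.1% of the sum in KO and 41.7% to 47.1% in WT, type II enzymes 10.6% to 10.8% in KO and 10.4% to 11.3% in WT, and Prmt7 alone 43.4% to 47.6% in KO and 42.5% to 47.0% in WT. Prmt7 and Carm1 together therefore made up most of the transcript level of the family in every library.

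Markers of testis cell types were set beside these values, because in whole testis fewer cells of a type and less RNA per cell cannot be told apart. The 9 spermatogonia markers summed to 38.5 to 43.9 FPKM in KO and 45.7 to 53.3 FPKM in WT, without overlap. Uchl1 made up 54.5% to 56.4% of this sum in KO and 58.1% to 61.7% in WT, and the sums of the 8 others overlapped, at 17.4 to 19.4 FPKM in KO and 19.1 to 20.4 FPKM in WT. Of the 6 tested, 4 were lower in value, and 2 of them, Uchl1 and Kit, had KO libraries wholly below WT libraries, as had 15.8% of all tested genes. None passed limma's threshold (the unadjusted p was under 0.05 for 2, both lower). Over all tested genes 8.89% had such a p and were lower and 5.38% had one and were higher, and the counts given for the lists stand beside these shares. Nanos2, of the stem cells, was listed at 0 in WT replicates 2 and 3 and was under 0.1 FPKM elsewhere.

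The 7 elongating spermatid markers summed to 33674 to 35770 FPKM in KO and 28501 to 32365 FPKM in WT. Of these, 4 (Prm1, Prm2, Tnp2 and Akap4) lay higher in KO without overlap, where 5.92% of all tested genes did so. Tnp1 was higher in value with overlap, and Smcp and Odf1 were lower in value with overlap. None passed limma's threshold (the unadjusted p was under 0.05 for the 4 without overlap). Sums of the 7 round spermatid markers (764 to 908 FPKM in KO and 739 to 835 FPKM in WT), the 9 spermatocyte markers (681 to 730 FPKM in KO and 705 to 752 FPKM in WT) and the 10 Sertoli markers (425 to 472 FPKM in KO and 450 to 505 FPKM in WT) overlapped. Of 9 tested spermatocyte markers 7 were lower in value and 2 higher, and of 8 tested Sertoli markers 6 were lower and 2 higher. A negative difference was found in 65.7% of all tested genes. Dmc1 of the spermatocyte list and Amhr2 of the Sertoli list lay lower in KO without overlap, as did 15.8% of all tested genes. Both had a limma unadjusted p under 0.05, and no gene of either list passed limma's threshold. Among the round spermatid markers 6 were higher in value and 1 lower, with a median of 0.12. Izumo1 and Catsper3 lay higher in KO without overlap. Acr lay lower without overlap, where 15.8% of all tested genes did so. None passed limma's threshold (the unadjusted p was under 0.05 for Izumo1 and Sun5, both higher). Tssk2 made up 35.9% to 39.3% of the round spermatid sum in KO and 38.2% to 38.9% in WT. The 7 Leydig markers summed to 1483 to 1727 FPKM in KO and 1658 to 1725 FPKM in WT, with 84.8% to 87.8% of the sum from Insl3 in KO and 84.5% to 87.1% in WT. All 7 had a negative difference, with a median of -0.17, against -0.15 in the members and -0.043 over all tested genes. None passed limma's threshold, and 1, Hsd3b1, had KO libraries wholly below WT libraries (log2 difference -0.29, limma adjusted p = 0.158). Sums overlapped too in the peritubular, macrophage, endothelial and red blood cell lists, in the last of which Hbb-bs was listed at 0 throughout. Lower in value were 4 of 5 tested peritubular, 3 of 4 macrophage, 2 of 2 endothelial and 3 of 4 red blood cell markers. Pecam1, an endothelial marker, lay lower without overlap, with means of 0.653 FPKM in KO and 1.09 FPKM in WT (limma adjusted p = 0.255). Cnn1, a peritubular marker, was lower with overlap (limma adjusted p = 0.301). Both had a limma unadjusted p under 0.05, and no gene of these lists passed limma's threshold. The 5 epididymis markers summed to 2.55 to 2.75 FPKM in KO and 2.48 to 3.07 FPKM in WT, nearly all from Rnase10, with Lcn5 listed at 0 throughout. The part of these markers in the differences of the members was not tested.

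The supply of the methyl donor was the pathway list that held a called gene. Of its 12 tested genes, 1 was called lower and 0 higher, with a median difference of -0.11. In value 10 were lower and 2 higher. Limma's unadjusted p was under 0.05 for 3 (Adk, Mat2b and Ahcyl1), all lower, as for 8.89% of all tested genes. KO libraries lay wholly below WT libraries in 4 (these 3 and Slc25a26), as in 15.8% of all tested genes. Over all tested genes 0.363% were called lower and the median was -0.043. Adk, adenosine kinase, which clears the adenosine left when S-adenosylhomocysteine is split, had 10.5, 9.92 and 10.01 FPKM in KO and 13.4, 12.6 and 12.7 FPKM in WT. All KO libraries lay below all WT libraries, and Adk fell to 0.783 times its WT level (log2 difference -0.32, SE 0.06, limma adjusted p = 0.0332). The call is not firm: leaving out any of the 6 libraries ended it (limma adjusted p = 0.0505 to 0.142), as did upper-quartile or median-of-ratios scaling (0.0730 and 0.0938) and testing without a filter (0.0687). Mat2b, the regulatory subunit of the enzyme that makes S-adenosylmethionine, had 5.28, 5.43 and 5.53 FPKM in KO and 5.99, 6.65 and 6.78 FPKM in WT and did not pass (log2 difference -0.22, limma adjusted p = 0.189). Mat2a, the catalytic subunit, averaged 27.2 FPKM in KO and 26.8 FPKM in WT (log2 difference 0.02, limma adjusted p = 0.854). Mat1a, the liver form, averaged 0.0349 FPKM in KO and 0.0272 FPKM in WT and was not tested.

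No gene was called in the other pathway lists by limma. Among 13 tested partners and regulators of the enzymes the median was -0.055, and none had an unadjusted p under 0.05. The smallest p belonged to Rb1, the retinoblastoma gene, whose protein binds Prmt2, with 3.69, 3.83 and 3.77 FPKM in KO and 4.02, 4.64 and 4.02 FPKM in WT (log2 difference -0.13, SE 0.07, limma adjusted p = 0.406). Next was Clns1a, whose protein brings Sm proteins to Prmt5 (log2 difference -0.10, SE 0.06, limma adjusted p = 0.472). Esr1, the estrogen receptor gene, whose protein Prmt2 is known to coactivate, had a log2 difference of -0.02 (limma adjusted p = 0.912).

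Tudor domain genes, which hold the readers of methylated arginine, had a median of -0.026 over 14 tested, with an unadjusted p under 0.05 for 1 gene, which was lower. Snd1 had 5.56, 5.02 and 6.35 FPKM in KO and 6.80, 7.10 and 6.64 FPKM in WT (log2 difference -0.24, SE 0.08, limma adjusted p = 0.230). Smndc1, a splicing factor, had a log2 difference of -0.14 (SE 0.08, limma adjusted p = 0.423). Tdrd6, a large protein of the chromatoid body, averaged 87.9 FPKM in KO and 93.6 FPKM in WT (log2 difference -0.09, limma adjusted p = 0.521).

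Genes of proteins that carry methylated arginine had a median of -0.054 over 24 tested, with an unadjusted p under 0.05 for 1 gene, which was lower. Snrpb, an Sm protein of the spliceosome and a substrate of Prmt5, had 37.6, 37.8 and 41.5 FPKM in KO and 44.7, 42.0 and 44.3 FPKM in WT (log2 difference -0.16, SE 0.06, limma adjusted p = 0.269). Sf3b2, the substrate of Prmt9, had 38.8, 35.8 and 39.0 FPKM in KO and 39.9, 45.5 and 40.7 FPKM in WT (log2 difference -0.15, SE 0.07, limma adjusted p = 0.356). Both were among the 5 of 24 tested genes of this list with KO libraries wholly below WT libraries. Over all tested genes 15.8% lay so.

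Other enzymes that act on arginine or on free methylarginine had a median of -0.051 over 6 tested of 11. Ddah1, which degrades free asymmetric dimethylarginine, had 3.23, 2.96 and 3.43 FPKM in KO and 4.08, 3.98 and 3.81 FPKM in WT, apart in all libraries but not past the threshold (log2 difference -0.24, SE 0.07, limma adjusted p = 0.183). It was the only gene of this list with an unadjusted p under 0.05. Jmjd6 had 37.0, 35.5 and 36.9 FPKM in KO and 37.0, 37.4 and 40.4 FPKM in WT (log2 difference -0.07, SE 0.06, limma adjusted p = 0.576). Its highest KO library lay just below its lowest WT library, at 36.9628 against 36.9632 FPKM. Ddah1 and Jmjd6 were thus the 2 of 6 tested genes with KO libraries wholly below WT libraries. Over all tested genes 15.8% lay so. Padi6, a member of the family of citrullinating enzymes that is known from the egg, was the only Padi gene high enough to be tested. It averaged 1.30 FPKM in KO and 1.12 FPKM in WT (limma adjusted p = 0.612).

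**Figure D4:**
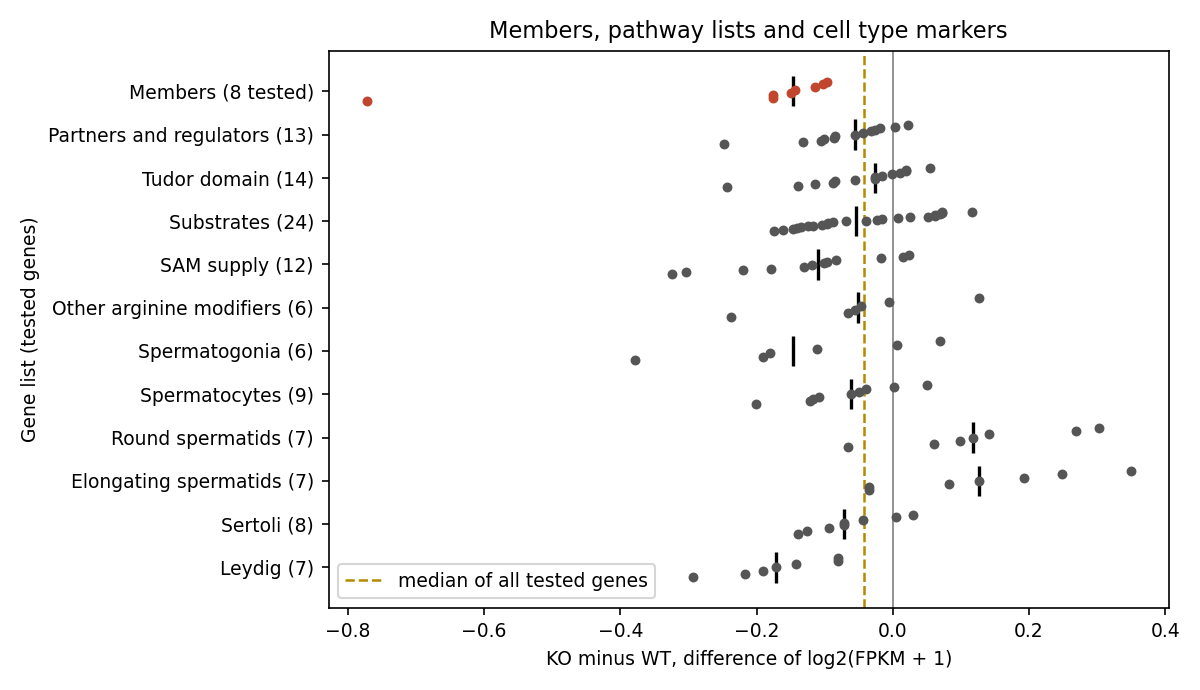
Difference of log2(FPKM + 1), KO minus WT, of each tested gene in the members, the 5 pathway lists and 6 lists of testis cell type markers, with black ticks at list medians and a dashed line at the median of all tested genes. Prmt2, at -0.77, is the point farthest from 0; list medians run from -0.17 in the Leydig list to 0.13 in the elongating spermatid list.

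Genes with a pattern like that of Prmt2 were named by the correlation of log2(FPKM + 1) over the 6 libraries. The 5 highest among tested genes outside the family were Psmb4 (r = 0.998), a proteasome subunit, Abhd16a (0.996), a lipid hydrolase, Atg5 (0.996) of autophagy, Map2k3 (0.994), a MAP kinase kinase, and Pkp2 (0.994) of desmosomes. All were lower in KO, by 0.10 to 0.20 on the log2 scale, far less than Prmt2. Psmb4 had 74.6, 73.9 and 74.4 FPKM in KO and 82.3, 86.0 and 84.1 FPKM in WT. The 6 points share the step between the groups, so r is given as a description. Among the members, r with Prmt2 was highest for Prmt5 (0.925) and lowest for Carm1 (0.469).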

How the data were processed

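Per the labels' protocols, testis RNA went through the NEBNext Ultra II Directional kit. The submitters' processing notes name HISAT2 and mm10. No source used here gives the quantifier, the annotation or the strand setting. The deposited values, 1 table per library, were taken as FPKM from the values, because the headers name no unit: they are not whole numbers, and 74 to 94 genes per library with a single annotated transcript lay at the step of 1 fragment, against 10 to 19 at 1.5 steps. Depth was estimated from that step, which was found by a scan for the strongest such contrast and is therefore approximate. The fragment numbers and the counting error of Prmt2 rest on this depth, while the intervals of the differences come from the limma fit. Rows were summed per symbol (333 symbols on 1078 rows, no member among them).

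Libraries were grouped by title. log2(FPKM + 1) was fitted with limma 3.58.1 (R 4.3.3; trend, robust) for the 12952 genes averaging 1 FPKM or above in either group, and p-values were adjusted over all of them at 0.05. Since the libraries may share an animal, p-values rest on a spread that may be only technical. The fit was tested on simulated data. Members and lists were chosen with earlier results of these data known. Genes named outside the members include those called in a pathway list, or else the 2 with the smallest p. Others are the nearest tested genes to Prmt2 and the 5 most like it. Genes that overlap a member are also named, as are some chosen for their known roles or their values after these were seen. Positions are GENCODE M21 (GRCm38, the assembly of mm10) and promoters RefSeq. A BLAST 2.17.0 search at 90% identity found no transcript of another gene over at least 50% of the longest coding transcript of any member. The closest, AC148336.1, matched 48.1% of that of Prmt1. Alternatives were other pseudocounts, filters, scalings, the replicate number as a block, a fit without robust estimation, a threshold of 0.1 and each library left out. Figures were drawn with matplotlib 3.10.9.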

Additional observations from a re-analysis of the deposited data

How the results depend on the processing

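Prmt2 kept its negative difference under every alternative in which it was tested, at -0.71 to -0.85 with a library left out, and at -1.07 and -1.11 with pseudocounts of 0.1 and 0.01. With a filter at 5 FPKM it was not tested, so the number of members called lower was 0. The 7 others also stayed negative, with Carm1 (-0.018 without WT replicate 3) and Prmt3 (-0.018 without KO replicate 2) nearest to 0. The sum of the members was 86.3% to 91.5% of WT. Genes called over the whole table moved more: without a filter 56 were higher, with median-of-ratios scaling 28 were lower, and at a threshold of 0.1 there were 178 higher and 96 lower. Leaving out single libraries gave 49 to 184 higher and 23 to 49 lower. The higher count moved by over 1.5 times without KO replicate 2 (49), KO replicate 3 (54), WT replicate 1 (52), WT replicate 2 (67) and WT replicate 3 (184). The call in the methyl donor list (Adk) was lost, leaving 0, without a filter, with median-of-ratios or upper-quartile scaling, with the replicate block and without any library. Dip2a turned to -0.027 without WT replicate 1 (range 0.074 to -0.027 with a library left out). Deviations of same-numbered libraries correlated at 0.065, -0.13 and 0.061, and those of differently numbered libraries at -0.25 to 0.20. With 3 libraries per group these values cannot tell whether the replicate numbers pair the libraries. With the replicate block, 32 genes were higher and 18 lower, and Adk had a limma adjusted p of 0.132. The causes of these moves were not tested. Estimated fragment numbers limit Prmt2, Prmt3 and Prmt9, at 103 to 248 per library, and leave Prmt8 at the floor.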
